A study of Mus musculus with 6 samples.

Results

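The enzymes that carry glucose carbon through glycolysis, the pentose phosphate pathway and the tricarboxylic acid (TCA) cycle were compared between leukaemic and normal mouse blood stem and progenitor cells. The 38 enzyme genes were taken by symbol from a list ordered by path, and all 38 were found among the 29872 gene symbols of the deposited table. By path they were 15 genes of the glycolytic sequence from hexokinase to pyruvate kinase, 2 lactate dehydrogenase genes, 4 genes at the pyruvate dehydrogenase gate, 3 bisphosphate side enzymes, 5 pentose phosphate genes and 9 TCA cycle genes. Transcripts were measured by bulk RNA sequencing in 3 CML libraries and 3 WT libraries. CML stands for chronic myeloid leukaemia and WT for wild type. Both groups were C57BL/6 bone marrow cells, untreated and grown ex vivo, from a sort for lineage-negative cells positive for Sca1, cKit and CD150, a gate for blood stem cells. The labels give no allele, promoter or induction scheme for the CML cells and no age. Whether a group's libraries are separate animals, separate cultures or neither is not labelled, and p-values therefore speak only of the spread among these 6 libraries, which may be technical.

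Glycolysis splits glucose into pyruvate in the cytosol and yields a little ATP without oxygen. Pyruvate then leaves as lactate, made by lactate dehydrogenase, or enters mitochondria, where the pyruvate dehydrogenase complex turns it into acetyl-CoA for the TCA cycle. Pyruvate dehydrogenase kinases (Pdk genes) shut that gate by phosphorylation and pyruvate dehydrogenase phosphatases reopen it. The pentose phosphate pathway branches off at glucose phosphate and supplies NADPH and ribose. Normal blood stem cells are known for high glycolysis and high Pdk activity, held up in part by the transcription factor HIF (hypoxia-inducible factor), which acts on many genes of this route.

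Promoters of 5 genes are shown, those of the genes called between CML and WT under each of the 14 processing settings tried. They come from RefSeq (assembly GRCm38.p6) and run from 250 bases before to 50 bases after the transcription start, in the direction of transcription. Capitals mark ACGTG or GCGTG, the core letters of the HIF-bound hypoxia response element, on either strand (read on the printed strand as CACGT or CACGC when reversed). The windows are chr13:55021336-55021635 on the minus strand for Hk3, chrX:106186850-106187149 on the plus strand for Pgk1, chr2:71872974-71873273 on the plus strand for Pdk1, chrX:93832101-93832400 on the minus strand for Pdk3 and chr9:108991652-108991951 on the plus strand for Pfkfb4.
Hk3: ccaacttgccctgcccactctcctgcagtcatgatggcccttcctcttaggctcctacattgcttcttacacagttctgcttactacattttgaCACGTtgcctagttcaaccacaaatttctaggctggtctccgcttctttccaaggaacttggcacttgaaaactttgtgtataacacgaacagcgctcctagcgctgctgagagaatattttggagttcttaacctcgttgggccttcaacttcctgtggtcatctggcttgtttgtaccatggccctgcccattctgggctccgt
Pgk1: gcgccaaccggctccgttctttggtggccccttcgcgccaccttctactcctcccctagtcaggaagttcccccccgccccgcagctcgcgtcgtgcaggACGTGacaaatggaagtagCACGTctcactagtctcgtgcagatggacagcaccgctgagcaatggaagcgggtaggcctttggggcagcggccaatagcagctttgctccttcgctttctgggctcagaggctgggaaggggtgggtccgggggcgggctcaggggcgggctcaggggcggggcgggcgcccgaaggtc
Pdk1: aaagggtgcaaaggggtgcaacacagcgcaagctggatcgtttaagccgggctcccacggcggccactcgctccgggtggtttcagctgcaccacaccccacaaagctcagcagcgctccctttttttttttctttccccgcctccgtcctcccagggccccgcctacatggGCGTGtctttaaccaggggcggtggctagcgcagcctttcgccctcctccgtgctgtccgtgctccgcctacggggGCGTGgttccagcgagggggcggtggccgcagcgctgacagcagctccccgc
Pdk3: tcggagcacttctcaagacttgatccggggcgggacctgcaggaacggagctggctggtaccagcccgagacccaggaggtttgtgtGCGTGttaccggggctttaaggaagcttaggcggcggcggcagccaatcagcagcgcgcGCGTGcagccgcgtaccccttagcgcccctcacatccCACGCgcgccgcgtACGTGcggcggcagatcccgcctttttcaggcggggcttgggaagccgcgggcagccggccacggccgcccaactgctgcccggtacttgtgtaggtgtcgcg
Pfkfb4: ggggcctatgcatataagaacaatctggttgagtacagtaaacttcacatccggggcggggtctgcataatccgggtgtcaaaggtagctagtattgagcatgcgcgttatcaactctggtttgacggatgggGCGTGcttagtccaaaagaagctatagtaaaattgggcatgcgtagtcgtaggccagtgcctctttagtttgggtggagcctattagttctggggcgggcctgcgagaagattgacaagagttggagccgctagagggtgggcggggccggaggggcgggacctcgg

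Promoters were matched for 37 of the 38 enzyme genes (all but Idh3a), 57 promoters in all. Of these 57, 45 (78.9%) held at least 1 of the 2 motifs, against 61.1% of the 13002 promoters of tested genes and 43.8% of all 32851 promoters. Some genes, such as Ogdh and Eno1, have several overlapping windows, so the same letters were counted more than once. By gene, 32 of the 37 had a motif in at least 1 promoter, and the share by gene over all tested genes was not computed. The E-box CACGTG, which contains ACGTG on both strands, was in 7 of the 57, against 9.89% of the promoters of tested genes. The RefSeq table holds a further Pdk1 promoter with neither motif, and the one printed was chosen for its matches. These matches describe letters in a window and say nothing of binding.

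The CML libraries held 13323552 to 15433562 counts and the WT libraries 15930648 to 17926866. Over all genes, 2820 of 16221 tested genes (17.4%) changed at an adjusted p under 0.05 (edgeR quasi-likelihood test), 1652 higher (10.2%) and 1168 lower (7.2%) in CML. That count was 1861 without CML replicate 2, 1771 without CML replicate 3, 1857 without WT replicate 1 and 1466 without WT replicate 2. The higher genes made up 58.6% of the calls, and 73.8% (2065 higher, 732 lower) when libraries were scaled by their totals alone. The stem and progenitor markers were present in every library, at summed levels of 1650 to 1910 in CML and 1840 to 1950 CPM in WT. CPM is counts per 1000000 counts after the scaling of edgeR. Of these 10 markers 3 fell in CML, led by Cd48 and Hlf. Markers of other cells differed in level: mast cell and basophil markers summed to 2140 to 7500 in CML and 176 to 362 CPM in WT (6 of 12 higher, led by Hdc and Tpsab1), and monocyte and macrophage markers to 374 to 442 in CML and 222 to 297 CPM in WT (5 of 9 tested higher, led by Adgre1 and Csf1r). Erythroid markers summed to 138 to 299 in CML and 344 to 418 CPM in WT (of 7 tested, 1 higher, Klf1, and 2 lower, with Hbb-bs lowest in p), and megakaryocyte markers to 129 to 201 in CML and 257 to 301 CPM in WT (2 of 7 tested lower, among them Itga2b). Lymphoid markers stayed at 4.73 to 8.23 in CML and 2.59 to 3.95 CPM in WT, with 1 of 10 tested and 0 called (1 at an unadjusted p under 0.05: Il7r, log2 fold change 0.82, adjusted p = 0.0561). Cell cycle genes summed to 3840 to 4230 in CML and 3840 to 4110 CPM in WT, with 1 of 15 higher (Tyms) and 2 lower, led by Ccnb1. No marker was at 0 in all 6 libraries. Klf1 and Tpsab1 were scarce, with 75 and 87 counts over the CML libraries and 7 and 5 over the WT libraries. The part of these cells in the enzyme results below was not tested. In bulk RNA, fewer cells of a type and less RNA per cell cannot be told apart.

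All 38 enzyme genes passed the filter on low counts. In CML, 3 rose (Hk3, Pfkfb4 and Taldo1), 5 fell (Pgk1, Pdk1, Pdk3, Pdha1 and Idh3a) and 30 did not pass, so 21.1% were called against 17.4% of all genes. In 19 of the 38 no CML value overlapped the WT values, with all CML libraries above WT in 7 and below WT in 12. Over all genes the groups did not overlap for 35.0%, above in 18.5% and below in 16.5%. The median log2 fold change (CML over WT) of the 38 genes was -0.07, beside -0.00 over all tested genes. The called changes were thus few, close to the background share in number, and pointed both ways. Groups without overlap were a larger share of the 38 genes (19, with 12 below WT) than of all genes (35.0%, with 16.5% below). In simulated data 29.9% of genes changed 1.5-fold were called, so a gene that did not pass may still differ. The lower count was 5 in the main fit and 3 without CML replicate 2, without CML replicate 3 or without WT replicate 2. With libraries scaled by their totals alone, 6 enzyme genes were higher and 3 lower. Where a list is given with 0 genes in a direction by edgeR, DESeq2 and limma-voom also called 0 in it. Counts by path or list below are to be read beside 10.2% of all tested genes higher and 7.2% lower.

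**Figure D1:**
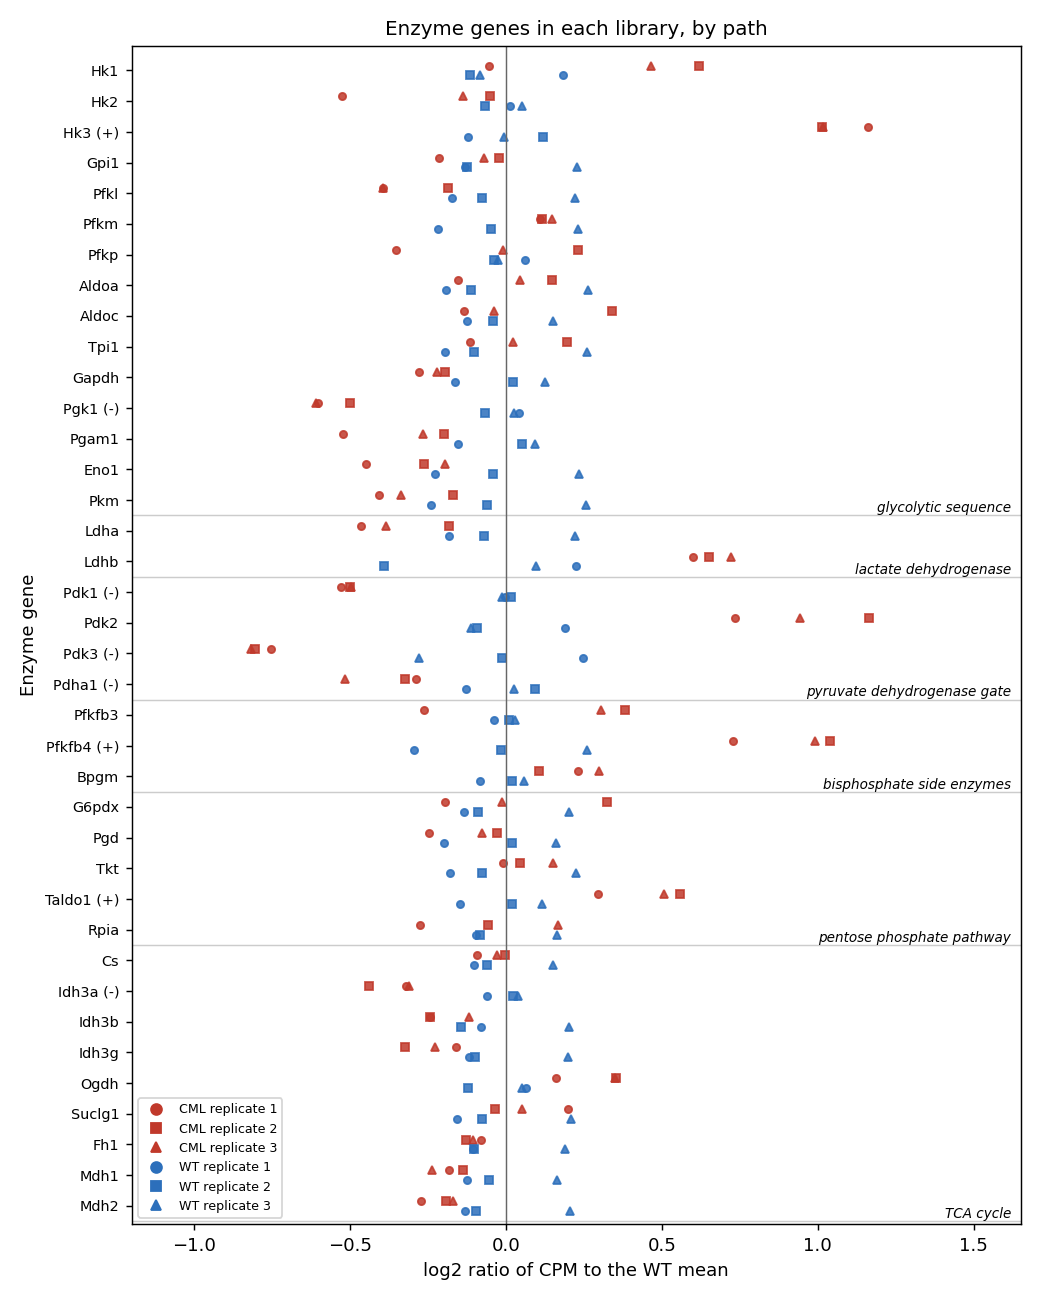
Each row is an enzyme gene, and each point is a library, placed by the log2 ratio of its CPM to the mean of the 3 WT libraries (CML in red, WT in blue, symbols by replicate); a plus or minus after a name marks a gene that was higher or lower in CML at an adjusted p under 0.05. The red points of Hk3, Pfkfb4 and Ldhb lie to the right of the blue ones and those of Pgk1, Pdk1 and Pdk3 to the left, while the groups overlap in 19 of the 38 rows, and WT replicate 3 (blue triangle) is the highest WT library in 33 of 38 rows.

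Within each group the order of the libraries was much alike across members. WT replicate 3 was the highest WT library for 33 of the 38 genes (86.8%), beside 50.4% of all tested genes, and the highest of all 6 libraries for 23 (60.5%), beside 18.5%. CML replicate 1 was the lowest CML library for 27 (71.1%), beside 36.7%. The summed level of the 38 genes was 7210 to 8180 in CML and 7410 to 9810 CPM in WT, so the sums overlapped. Ldha, Pkm and Aldoa were the 3 members with the highest CPM in both groups. CPM is not per length, and the order also depends on near-identical gene copies, treated below. With copies added, Eno1 (means of 1035 in CML and 1299 CPM in WT) and Pgk1 (972 and 1349) exceeded Aldoa (880 and 866).

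Glucose is trapped in the cell by hexokinase, and the 3 hexokinase genes differed in their values. Hk3, the isozyme known from myeloid cells, was at 23.5, 21.2 and 21.3 CPM in CML replicates 1, 2 and 3, against 9.68, 11.4 and 10.5 CPM in WT replicates 1, 2 and 3. All CML libraries were about alike and lay far above all WT libraries. The log2 fold change of Hk3 (chromosome 13, 55005985 to 55021385, minus strand, GRCm38) was 1.07 (SE 0.15, adjusted p = 3.37e-04, edgeR), which is 2.09-fold. Monocyte and macrophage markers and mast cell markers were higher in the same libraries, and their part in the Hk3 difference was not tested.

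Hk1, the general isozyme, was at 33.5, 53.4 and 48.0 CPM in CML, against 39.4, 32.1 and 32.8 CPM in WT. CML replicate 1 lay among the WT libraries and the other two CML libraries above them. Hk1 did not pass (log2 fold change 0.37, SE 0.17, adjusted p = 0.150), but did without CML replicate 1 (0.54, adjusted p = 0.0166). Hk2, the isozyme that HIF and growth signals induce, was at 49.6, 68.9 and 64.9 CPM in CML, against 72.0, 68.1 and 73.9 CPM in WT, and did not pass (-0.22, SE 0.13, adjusted p = 0.276). Per kilobase of exon the 3 genes were at 9.27 (Hk1), 10.9 (Hk2) and 6.56 (Hk3) CPM per kb in CML and 7.17, 12.7 and 3.14 CPM per kb in WT, so Hk3 was the lowest in both groups.

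Past hexokinase, Pgk1 was the only gene of the sequence that fell. It encodes phosphoglycerate kinase, the step of glycolysis that first pays back ATP. Pgk1 was at 351, 376 and 349 CPM in CML, against 547, 508 and 541 CPM in WT. The groups lay wide apart and each was tight. The log2 fold change was -0.57 (SE 0.11, adjusted p = 0.00340, edgeR), 0.674 times the WT level. The gene lies at 106187100 to 106203699 on chromosome X, plus strand. Of the 50-base words of its transcripts, 68.0% also occur in other annotated genes, mainly the retrocopies Pgk1-rs7 (332 CPM in CML, 410 CPM in WT, means) and Gm5537 (300.1 CPM in CML, 379 CPM in WT). How reads that fit several copies were divided is not given in the sources used here, so the level of Pgk1 alone is uncertain. With 3 copies added to Pgk1, an alternative chosen after those counts were seen, the sum was 929.7, 1024 and 961 CPM in CML, against 1334, 1266 and 1449 CPM in WT. That sum was still lower in CML (log2 fold change -0.47, SE 0.12, adjusted p = 0.0179).

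The same doubt touched 3 more genes with over 40% shared words: Gapdh (58.4%), Eno1 (49.5%) and Pgam1 (41.5%). Gapdh, glyceraldehyde phosphate dehydrogenase, was listed at only 65.8 to 69.7 in CML and 71.3 to 87.1 CPM in WT, below its copy Gm7336, at means of 420 in CML and 408 CPM in WT. With 136 near-identical copies added, the Gapdh sum was 705, 684 and 692 CPM in CML, against 643, 680 and 834 CPM in WT, and the log2 fold change of -0.23 for Gapdh alone (SE 0.12, adjusted p = 0.191) became -0.05 (SE 0.13, adjusted p = 0.824). Levels of Gapdh alone are thus no measure of its transcripts here. Eno1, enolase, was at 326 to 389 in CML and 380.0 to 524 CPM in WT (-0.30, adjusted p = 0.152), and at -0.33 (adjusted p = 0.127) with its 4 copies. Pgam1, phosphoglycerate mutase, was at 288 to 360 in CML and 371 to 441 CPM in WT (-0.32, adjusted p = 0.0945), and at -0.18 (adjusted p = 0.417) with its 2 copies.

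The other steps of the sequence did not pass, and most had overlapping groups. The phosphofructokinase genes, which set the committed step, were at 111 to 129 in CML and 130 to 171 CPM in WT for Pfkl (log2 fold change -0.32, adjusted p = 0.101, groups apart), at 20.8 to 21.4 in CML and 16.6 to 22.7 CPM in WT for Pfkm (0.12, adjusted p = 0.610) and at 70.3 to 105 in CML and 87.4 to 93.6 CPM in WT for Pfkp (-0.03, adjusted p = 0.928). Gpi1, glucose phosphate isomerase, was at 271 to 310.0 in CML and 287 to 369 CPM in WT (-0.10, adjusted p = 0.641). The aldolase genes Aldoa (0.02, adjusted p = 0.953) and Aldoc (0.07, adjusted p = 0.777) and Tpi1, triose phosphate isomerase (0.04, adjusted p = 0.884), all had a log2 fold change smaller than its standard error. Pkm, pyruvate kinase and among the most abundant members, was at 777, 917 and 817 CPM in CML, against 874, 990 and 1232 CPM in WT (-0.30, SE 0.15, adjusted p = 0.175). Its groups overlapped, since CML replicate 2 exceeded WT replicate 1. In all, 1 of the 15 genes of the sequence was higher, 1 lower and 13 did not pass, with a median log2 fold change of -0.10.

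**Figure D2:**
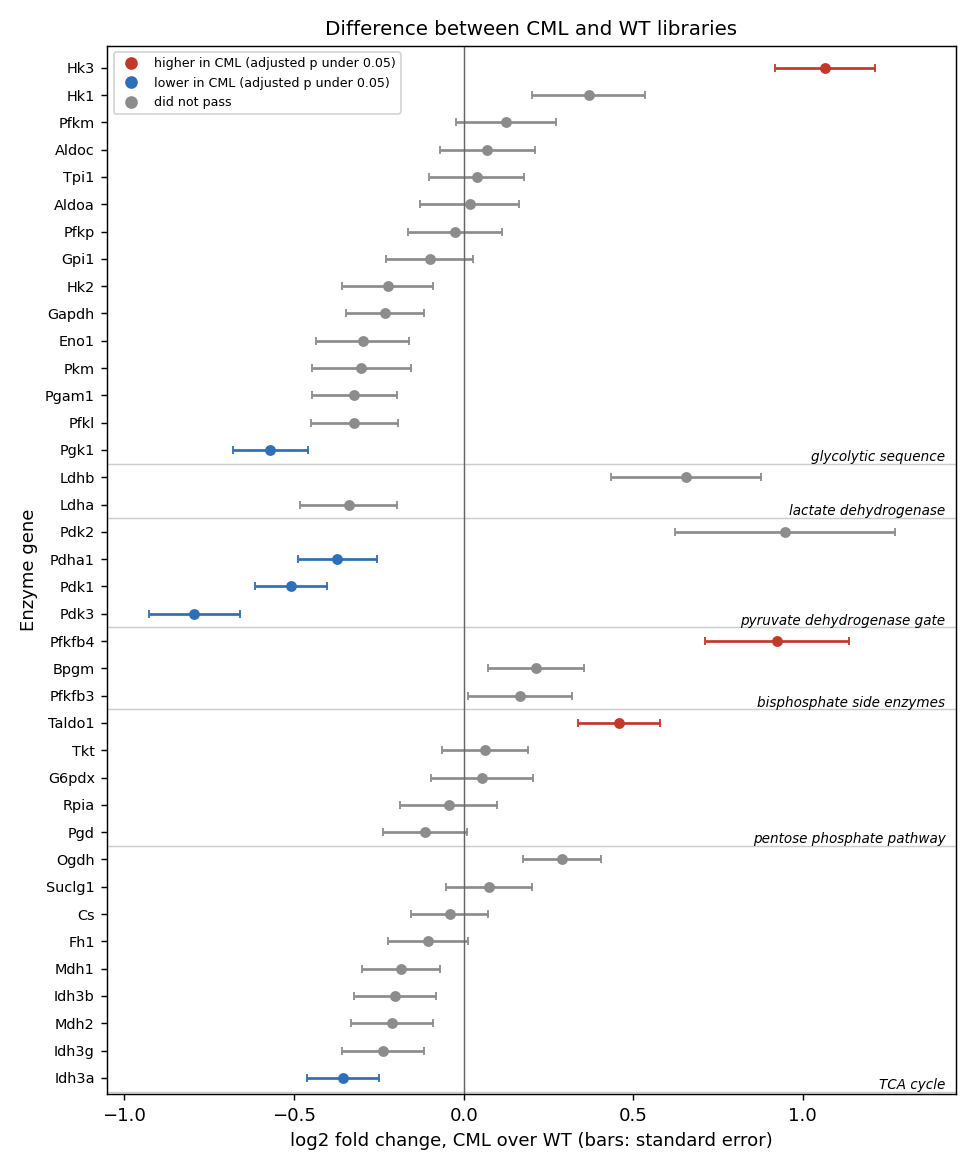
Each row gives the log2 fold change of an enzyme gene, CML over WT, with a bar of 1 standard error to each side (edgeR, 3 libraries per group), sorted within each path. The called genes are spread over 5 of the 6 paths, from Hk3 at 1.07 to Pdk3 at -0.79, and the gate of pyruvate dehydrogenase holds 3 of the 5 lower ones.

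Lactate dehydrogenase turns pyruvate into lactate, and its A and B subunits come from Ldha and Ldhb. Ldha was at 910.3, 1107 and 962 CPM in CML, against 1107, 1196 and 1465 CPM in WT. The groups just failed to overlap, as CML replicate 2 and WT replicate 1 were nearly equal, and Ldha did not pass (log2 fold change -0.34, SE 0.14, adjusted p = 0.120). Ldhb was scarce, at 6.28, 6.49 and 6.82 CPM in CML, against 4.84, 3.16 and 4.42 CPM in WT. Every CML library lay above every WT library. Some of its 50-base words also occur in a pseudogene that was not used here. Ldhb did not pass either (0.66, SE 0.22, adjusted p = 0.0575), except with libraries scaled by their totals (adjusted p = 0.0341). Per kilobase of exon Ldha was at 524 CPM per kb in CML and 663 CPM per kb in WT, and Ldhb at 5.01 CPM per kb in CML and 3.17 CPM per kb in WT, so transcripts of the A subunit dominated in both groups. By edgeR 0 of the 2 genes were called, with both at an unadjusted p under 0.05, and their median log2 fold change was 0.16.

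At the pyruvate dehydrogenase gate 3 of 4 genes were lower in CML and 0 higher (1, Pdk2, at an unadjusted p under 0.05), with a median log2 fold change of -0.44. Over all tested genes 7.2% were lower and 10.2% higher. Of the 3 lower genes Pdk3 and Pdha1 are X-linked, and 13.0% of all tested X-linked genes were lower. Pdk1, a kinase that shuts the complex and a known HIF target, was at 304, 311 and 311 CPM in CML, against 439, 444 and 435 CPM in WT. Each group was tight, with SDs of 3.72 and 4.40 CPM for CML and WT, and the gap was far wider than either. Pdk1 (chromosome 2, 71873224 to 71903858, plus strand) changed by -0.51 in log2 (SE 0.11, adjusted p = 0.00531, edgeR).

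Pdk3, another kinase of the family, fell more than any other of the 38 genes by fitted fold. It was at 137, 132 and 131 CPM in CML, against 274, 229 and 190 CPM in WT. The CML libraries agreed closely, while the WT libraries spread widely and all lay above them. The log2 fold change of Pdk3 (chromosome X, 93764607 to 93832201, minus strand) was -0.79 (SE 0.13, adjusted p = 0.00147), 0.577 times the WT level. Pdk1 and Pdk3 share no 50-base word with another annotated gene, so the doubt about copies does not touch them.

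Pdk2, the kinase found in most tissues, was scarce, at 1.57, 2.12 and 1.82 CPM in CML, against 1.08, 0.884 and 0.872 CPM in WT. These levels stand for 14 to 29 counts per library, and the groups did not overlap. Pdk2 did not pass (log2 fold change 0.95, SE 0.33, adjusted p = 0.0617), except with libraries scaled by their totals (adjusted p = 0.0409). Per kilobase of exon Pdk2 was at 0.816 CPM per kb in CML and 0.420 CPM per kb in WT, beside 59.5 and 63.0 CPM per kb in CML for Pdk1 and Pdk3 and 84.7 and 109 CPM per kb in WT.

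Pdha1, the catalytic E1 alpha subunit of the complex that the kinases act on, was at 274, 267 and 234 CPM in CML, against 306, 356 and 340.4 CPM in WT. All CML libraries lay below all WT libraries by a smaller margin. Of its 50-base words 16.9% also occur in other annotated genes, mainly Map3k15, which overlaps it, so its level carries that doubt. The log2 fold change of Pdha1 (chromosome X, 160122209 to 160138413, minus strand) was -0.37 (SE 0.12, adjusted p = 0.0438). That call was close to the threshold: leaving out CML replicate 2 (adjusted p = 0.107), CML replicate 3 (0.204) or WT replicate 2 (0.185), or scaling by library totals (0.120), ended it. The 4 gate genes together summed to 739.8, 732 and 701 CPM in CML, against 952, 981 and 974 CPM in WT, so the sums did not overlap.

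Genes next to the gate, from a list of 15 other genes for the entry and exit of pyruvate, gave 0 higher (0 also at an unadjusted p under 0.05) and 3 lower among 13 tested by edgeR, with a median of -0.19. Pdp1, the phosphatase that removes the phosphate the kinases add, was at 20.7, 24.7 and 23.0 CPM in CML, against 77.8, 98.0 and 78.5 CPM in WT. It had the widest gap among the genes of that list, a log2 fold change of -1.89 with an SE of 0.14 (adjusted p = 1.33e-06, edgeR). Transcripts of the kinases Pdk1 and Pdk3 and of the phosphatase Pdp1 were thus all lower in CML. Slc16a1 encodes a monocarboxylate transporter, which carries lactate across the cell membrane. Its transcripts were at 215, 205 and 194 CPM in CML, against 330.4, 379.9 and 332 CPM in WT (-0.76, SE 0.11, adjusted p = 5.70e-04). Dld, the E3 subunit of the same complex, was at 147, 143 and 141 CPM in CML, against 222, 239 and 179 CPM in WT (-0.57, SE 0.12, adjusted p = 0.00723), and was not called without WT replicate 2 (adjusted p = 0.0545). For all 3, each CML library lay below each WT library.

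**Figure D3:**
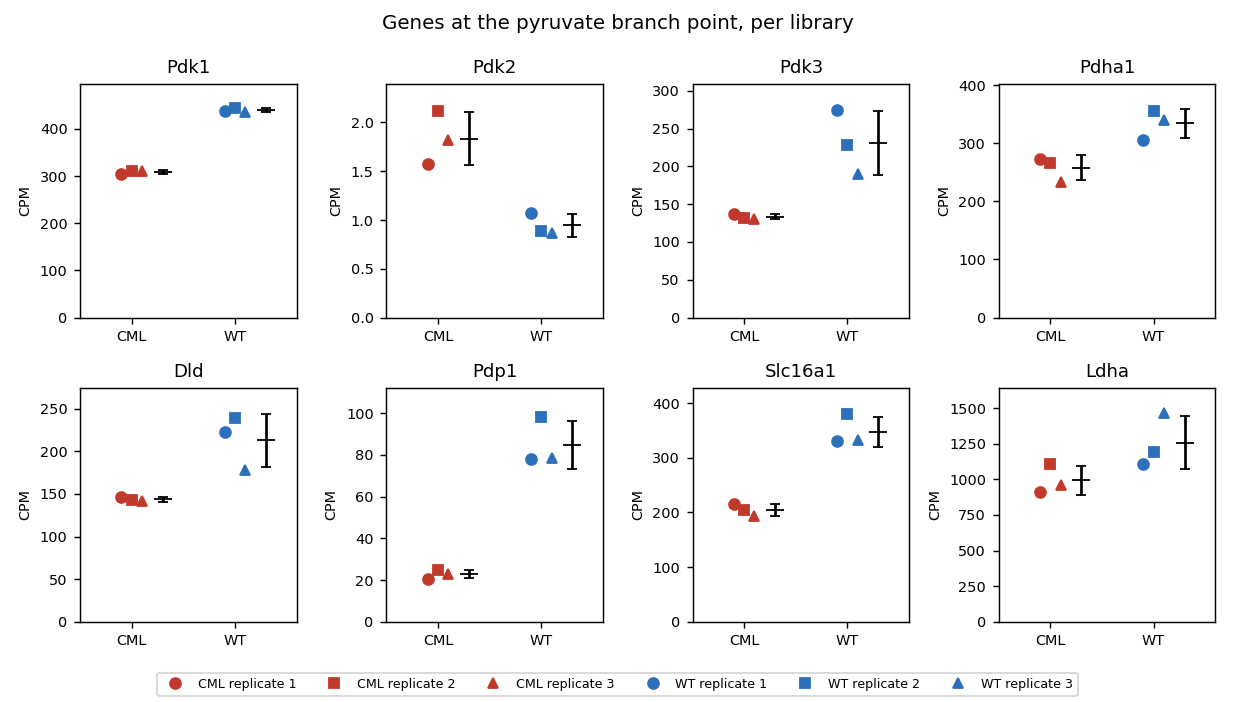
Each panel shows a gene at the pyruvate branch point, with CPM on an axis that starts at 0, a point per library (CML left in red, WT right in blue, symbols by replicate) and a black mark with bars for the mean and SD over 3 libraries. Pdk1, Pdk3, Pdha1, Dld, Pdp1 and Slc16a1 are lower in CML, with Pdp1 at 20.7 to 24.7 in CML and 77.8 to 98.0 CPM in WT; Ldha and Pdk2 did not pass.

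The bisphosphate side enzymes make or remove the regulators that sit beside glycolysis, and 1 of the 3 rose, with a median log2 fold change of 0.21. Pfkfb4, a bifunctional enzyme that makes and breaks down the regulatory fructose bisphosphate which activates phosphofructokinase, rose in CML. It was at 7.41, 9.19 and 8.89 CPM in CML, against 3.64, 4.42 and 5.36 CPM in WT, with no overlap. Pfkfb4 (chromosome 9, 108991778 to 109032228, plus strand) changed by 0.92 in log2 (SE 0.21, adjusted p = 0.00923, edgeR). Over all 6 libraries its lowest count was 61 and its highest 142. Pfkfb3, its relative with mainly kinase activity, was at 49.3, 77.1 and 73.0 CPM in CML, against 57.6, 59.5 and 60.4 CPM in WT. CML replicate 1 was the lowest of all 6 libraries and the other two CML libraries the highest, and Pfkfb3 did not pass (0.17, SE 0.15, adjusted p = 0.495). Bpgm, bisphosphoglycerate mutase, known from red cells where its product loosens oxygen from haemoglobin, was at 16.3 to 18.7 in CML and 14.3 to 15.8 CPM in WT (0.21, SE 0.14, adjusted p = 0.333).

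In the pentose phosphate pathway, 1 of 5 genes rose and 0 fell (0 also at an unadjusted p under 0.05), with a median log2 fold change of 0.05. Taldo1, transaldolase of the non-oxidative branch, was at 83.9, 101 and 97.1 CPM in CML, against 61.7, 69.2 and 74.1 CPM in WT. All CML libraries lay above all WT libraries. Taldo1 (chromosome 7, 141392199 to 141402968, plus strand) changed by 0.46 in log2 (SE 0.12, adjusted p = 0.0200, edgeR). Taldo1 no longer passed when CML replicate 2 (adjusted p = 0.0854) or 3 (0.0828), or WT replicate 1 (0.0807) or 2 (0.0846), was left out. With its 1 near-identical copy added it was at 0.45 (adjusted p = 0.0202).

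Its partner Tkt, transketolase and the most abundant of the 5 genes by CPM, was at 314 to 350.0 in CML and 278 to 369 CPM in WT (0.06, adjusted p = 0.780). G6pdx, glucose phosphate dehydrogenase, the entry step that yields NADPH, was at 43.5 to 62.4 in CML and 45.4 to 57.3 CPM in WT (0.05, adjusted p = 0.846). Pgd, phosphogluconate dehydrogenase (-0.11, adjusted p = 0.568), and Rpia, ribose phosphate isomerase (-0.04, adjusted p = 0.868), overlapped between the groups as well. Of 7 other genes of the pathway 6 were tested and 0 were called by edgeR (1 higher and 1 lower at an unadjusted p under 0.05). The lowest p was that of H6pd, the endoplasmic reticulum enzyme, with 33.8 to 39.3 in CML and 26.6 to 32.0 CPM in WT (0.32, adjusted p = 0.101). The median of that list was -0.14.

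In the TCA cycle, 1 of 9 genes fell and 0 rose (1, Ogdh, at an unadjusted p under 0.05), with a median log2 fold change of -0.19. Idh3a, the catalytic alpha subunit of the NAD-dependent isocitrate dehydrogenase, was at 148, 136 and 149 CPM in CML, against 177, 188 and 190.0 CPM in WT. All CML libraries lay below all WT libraries. Idh3a (chromosome 9, 54586334 to 54604661, plus strand) changed by -0.36 in log2 (SE 0.11, adjusted p = 0.0361, edgeR). Leaving out CML replicate 1 (adjusted p = 0.0534), 2 (0.165) or 3 (0.101), or WT replicate 1 (0.0563) or 2 (0.139), ended the call, as did scaling by library totals (0.120), while leaving out WT replicate 3 did not. The other subunits did not pass: Idh3b was at 101 to 110 in CML and 108 to 137 CPM in WT (-0.20, adjusted p = 0.281), and Idh3g at 205 to 229.9 in CML and 237 to 295 CPM in WT (-0.24, adjusted p = 0.201).

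The remaining TCA genes did not pass. Ogdh, the E1 subunit of oxoglutarate dehydrogenase, was at 76.6, 87.6 and 87.4 CPM in CML, against 71.7, 63.1 and 71.1 CPM in WT. Its groups did not overlap (log2 fold change 0.29, SE 0.11, adjusted p = 0.101), and it passed with libraries scaled by their totals (adjusted p = 0.0382). Citrate synthase (Cs, -0.04, adjusted p = 0.842), the succinate-CoA ligase subunit Suclg1 (0.07, adjusted p = 0.736) and fumarase (Fh1, -0.10, adjusted p = 0.585) had overlapping groups. The malate dehydrogenases did not overlap but stayed short of the threshold: Mdh1, the cytosolic form, was at 117 to 125 in CML and 126 to 154 CPM in WT (-0.19, adjusted p = 0.297), and Mdh2, the mitochondrial form, at 85.7 to 92.1 in CML and 94.6 to 119 CPM in WT (-0.21, adjusted p = 0.252).

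Of 17 other genes of the cycle 16 were tested, 1 was higher and 2 were lower, with a median of -0.08. Idh1, the cytosolic NADP-dependent isocitrate dehydrogenase, was at 92.4, 143 and 114 CPM in CML, against 79.9, 75.3 and 68.1 CPM in WT (0.65, SE 0.15, adjusted p = 0.0106, edgeR). Suclg2, the GTP-forming succinate-CoA ligase subunit, was at 168, 133 and 122 CPM in CML, against 213, 236 and 199.8 CPM in WT (-0.62, SE 0.13, adjusted p = 0.00690). Neither gene had overlapping groups.

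Of 21 other glycolysis genes 11 were tested, 2 were higher and 0 lower (1 at an unadjusted p under 0.05), with a median of -0.03. Eno2, the neuronal-type enolase, was scarce, with 88 counts over the CML libraries and 12 over the WT libraries (0.691, 2.92 and 2.32 CPM in CML, against 0.120, 0.0631 and 0.561 CPM in WT). Its log2 fold change was 2.95 (SE 0.72, adjusted p = 0.0198, edgeR), and it no longer passed when CML replicate 3 (adjusted p = 0.0620), or WT replicate 1 (0.0971) or 2 (0.0728), was left out. Galm, galactose mutarotase, was at 6.47, 7.95 and 4.82 CPM in CML, against 3.46, 3.54 and 3.80 CPM in WT (0.83, SE 0.24, adjusted p = 0.0285), and no longer passed when CML replicate 2 (adjusted p = 0.135), or WT replicate 1 (0.0793) or 2 (0.107), was left out. Both genes lay above WT in all CML libraries.

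Because a ratio of 2 genes in the same library does not depend on the scaling between libraries, the isozyme mix was compared in 9 pairs. In 6 of the 9 pairs the groups did not overlap, and the share over other gene pairs was not computed. For single genes, which are not ratios, the share without overlap was 35.0%. Hk1, Pfkl and Pdk1 each stand in more than 1 pair, so the pairs are not independent. With 3 libraries against 3 the smallest p an exact two-sided permutation test can give is 0.1 (0.15 after Benjamini-Hochberg adjustment over the 9 pairs), so none could pass. Ldhb made up 0.685%, 0.583% and 0.704% of the Ldha and Ldhb counts in CML, against 0.435%, 0.263% and 0.301% in WT, a difference of 1.01 in log2 ratio (exact permutation p = 0.1). Pdk2 made up 0.513%, 0.676% and 0.580% of the Pdk1 and Pdk2 counts in CML, against 0.245%, 0.199% and 0.200% in WT, a difference of 1.44 (exact permutation p = 0.1). Both minor isozymes thus held a larger share in every CML library while staying below 1 in 100 counts.

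Among the hexokinases, Hk2 made up 59.7%, 56.3% and 57.5% of the Hk1 and Hk2 counts in CML, against 64.6%, 68.0% and 69.3% in WT, a difference of -0.59 in log2 ratio, and Hk3 to Hk1 differed by 0.72 (exact permutation p = 0.1 for both). Pfkm made up 15.8%, 14.0% and 16.1% of the Pfkl and Pfkm counts in CML, against 11.3%, 11.8% and 11.7% in WT, a difference of 0.45 (exact permutation p = 0.1). Pfkfb4 made up 13.1%, 10.7% and 10.8% of the Pfkfb3 and Pfkfb4 counts in CML, against 5.95%, 6.91% and 8.15% in WT, a difference of 0.79 (exact permutation p = 0.1). The groups overlapped for Pfkp to Pfkl (0.27, exact permutation p = 0.2), Pdk3 to Pdk1 (-0.27, p = 0.2) and Aldoc to Aldoa (0.03, p = 0.9). These shares are of counts and not per length.

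**Figure D4:**
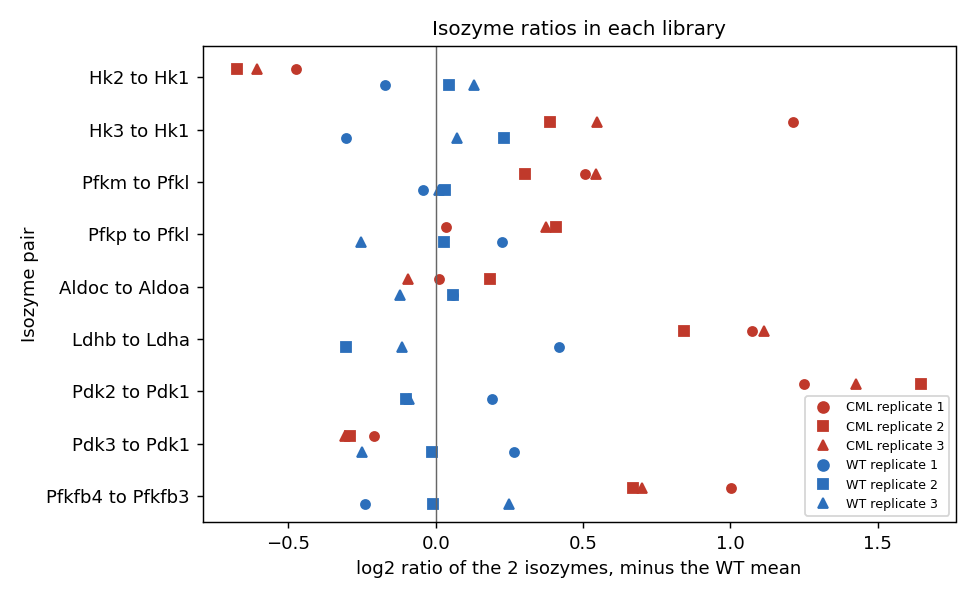
Each row is a pair of isozymes, and each point a library, placed by the log2 ratio of their counts minus the mean of the 3 WT libraries (CML in red, WT in blue, symbols by replicate). The groups are apart in 6 of 9 rows, by 1.44 for Pdk2 to Pdk1 and by -0.59 for Hk2 to Hk1, and overlap for Pfkp to Pfkl, Aldoc to Aldoa and Pdk3 to Pdk1. The share over other gene pairs was not computed.

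Regulators of these genes were measured in the same libraries. Of 18 on the list 15 were tested, 1 was higher and 2 were lower, with a median log2 fold change of -0.01. Mycn, a MYC family transcription factor, was at 10.9, 13.2 and 14.6 CPM in CML, against 84.5, 102 and 129 CPM in WT, the widest gap of that list (-3.03, SE 0.18, adjusted p = 2.95e-07, edgeR). Egln3, a prolyl hydroxylase that marks HIF for removal, was at 134, 160.0 and 165 CPM in CML, against 259, 225 and 239 CPM in WT (-0.65, SE 0.12, adjusted p = 0.00247). Hif1a, the oxygen-regulated HIF subunit, was at 243, 301 and 247 CPM in CML, against 202, 201 and 180.4 CPM in WT (0.44, SE 0.12, adjusted p = 0.0251). The groups did not overlap for any of the 3, but Hif1a no longer passed when CML replicate 2 (adjusted p = 0.147) or 3 (0.0539), or WT replicate 2 (0.0846), was left out.

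Hypoxia response genes outside these paths did not move one way. Of 16 tested, 3 were higher and 1 was lower in CML, with a median log2 fold change of 0.00. P4ha2, a collagen prolyl hydroxylase subunit, was at 4.77, 6.71 and 5.13 CPM in CML, against 1.97, 1.07 and 1.12 CPM in WT (1.98, SE 0.30, adjusted p = 6.42e-04, edgeR). Adm, adrenomedullin, had 59 counts over the CML libraries and 4 over the WT libraries (3.83, SE 0.73, adjusted p = 0.00316). Ankrd37 was at 11.1 to 14.2 CPM in CML, against 16.4 to 19.2 CPM in WT (-0.53, SE 0.16, adjusted p = 0.0339), and no longer passed when CML replicate 1 (adjusted p = 0.0648) or 3 (0.140), or WT replicate 2 (0.124) or 3 (0.0519), was left out. Ero1l, the oxidase of disulfide formation, overlapped between the groups at 974, 2056 and 1485 CPM in CML, against 976, 818 and 709 CPM in WT (0.85, SE 0.25, adjusted p = 0.0477), and no longer passed when CML replicate 2 (adjusted p = 0.0859) or 3 (0.115), or WT replicate 1 (0.102), 2 (0.155) or 3 (0.190), was left out.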

How the data were processed

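Per the labels, RNA was taken up on RNeasy columns and sequenced from Nextera XT libraries. The deposited table gives the authors' estimated counts, a row per gene symbol and a column per library, without scaling. Between 31.1% and 33.4% of a library's values were not whole (tolerance 0.001), and 573 symbols were at 0 in all 6 libraries after rounding. The submitters' processing notes name STAR 2.7.3a, Partek 8.0 and mm10, without roles. Annotation, strand setting and how reads that fit several genes were divided: not given in the sources used here.

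Counts were rounded and filtered with filterByExpr of edgeR 4.0.16 (minimum count 10; R 4.3.3), which left 16221 genes. The test was edgeR's two-sided quasi-likelihood F test (TMM scaling, robust, group as the only term), Benjamini-Hochberg adjusted over all tested genes, threshold 0.05. Standard errors (SE) come from the fold change and F. CPM (counts per 1000000) were computed with TMM scaling, and per kilobase of exon by the union of coding transcripts. Isozyme ratios used counts plus 0.5 and exact permutation. Coordinates are from GENCODE M21 (GRCm38, the assembly of mm10), which matched 28951 symbols. Shared sequence was counted as 50-base words. The pipeline was tested on simulated data. Of 149 calls in those data 9.4% were false, beside the adjusted p threshold of 0.05. Alternatives were other scalings and filters, DESeq2 1.42.0, limma-voom (limma 3.58.1), a replicate block, leaving out each library, and near-identical copies added (pseudogenes sharing at least 1% of words, other genes at least 20%), the last chosen after the data were seen.

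The members and lists were chosen with earlier results of these data known. The text names all 38 enzyme genes, up to 4 called genes of lowest adjusted p from each other list (in a list without calls, the gene of lowest p), and up to 2 from each marker list; 2 of the genes so chosen are not reported here. The depth is 13323552 to 17926866 counts per library.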

Additional observations from a re-analysis of the deposited data

How the results depend on the processing

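Hk3, Pgk1, Pdk1, Pdk3 and Pfkfb4 kept their call and direction in each of the 14 settings tried: other scalings and filters, DESeq2, limma-voom, the replicate block, near-identical copies added, and each library left out. Scaled by library totals, 6 enzyme genes were higher and 3 lower, with Ldhb, Pdk2 and Ogdh added and Pdha1 and Idh3a (adjusted p = 0.120 each) lost. At an adjusted p under 0.01, 1377 genes, 2 of the higher enzyme genes and 3 of the lower ones were called. With each library left out in turn, 1466 to 4122 genes, 2 to 4 higher and 3 to 5 lower enzyme genes were called. The replicate block gave 2807 genes, with 3 enzyme genes higher and 3 lower; Pdha1 (adjusted p = 0.0543) and Idh3a (0.0504) were lost. Same-numbered CML and WT libraries correlated at -0.02, -0.05 and 0.01 in their deviations from the group means. CML replicate 1 correlated best with WT replicate 2 (0.09). No pairing by number was seen in these values, but with 3 libraries per group they cannot settle whether same-numbered libraries were handled together. Pdha1 was also lost at a mean of at least 50 counts (adjusted p = 0.0503). The cause was not tested. Signs turned only for genes that did not pass. By library totals the log2 fold change was 0.074 for Pfkp, 0.051 for Rpia and 0.053 for Cs, and without the low-count filter -0.012 for Aldoa. With each library left out it ran from -0.17 to 0.026 for Gpi1, -0.17 to 0.11 for Pfkp, -0.076 to 0.17 for Aldoa, -0.086 to 0.16 for Aldoc, -0.057 to 0.19 for Tpi1, -0.10 to 0.16 for G6pdx, -0.026 to 0.19 for Tkt, -0.16 to 0.055 for Rpia, -0.097 to 0.038 for Cs and -0.0042 to 0.19 for Suclg1. The log2 ratio of Aldoc to Aldoa differed by -0.041 to 0.097. Among other HIF-linked genes, Ero1l also lost its call with DESeq2 size factors (adjusted p = 0.0503), without the low-count filter (0.141) and with the replicate block (0.0882), and Ankrd37 by library totals (0.0971). Pdk2 had 14 to 29 counts per library.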

Other observations

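A feature noticed after the values were seen is the place of these genes in the genome. Of the 38 enzyme genes 5 are X-linked (Pgk1, Pdk3, Pdha1, G6pdx and Idh3g), and 3 of these 5 were lower in CML and none was higher. The 33 autosomal enzyme genes had 3 higher and 2 lower. Over all tested genes, 13.0% of the 555 X-linked genes were lower and 7.75% higher in CML, with a median log2 fold change of -0.13. Of the 15279 autosomal genes, 7.02% were lower and 10.4% higher, with a median of 0.00. This difference was not tested.

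Retrocopies held much of the signal of the glycolytic enzymes in these counts. Gm4735 and Eno1b, copies of Eno1, averaged 396 and 295 in CML and 475 and 349 CPM in WT, beside 362 in CML and 446 CPM in WT for Eno1 itself. Pgam1-ps2 averaged 390.1 in CML and 379 CPM in WT, beside 331 in CML and 413 CPM in WT for Pgam1. Of the 38 enzyme genes, 18 share no 50-base word with another annotated gene, among them Hk3, Pdk1, Pdk2, Pdk3, Pfkfb4 and Idh3a.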
